A study of Mus musculus with 24 samples.

Results

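The exon peaks described here are those of genes that, among RNAs recovered with STAU2, had a peak called Exon and none called in their 3′ UTR. The lack of a called peak does not show that a 3′ UTR is unbound, nor does an exon peak show where STAU2 binds. STAU2 is an RNA-binding protein of neural cells, and its RNAs were recovered by immunoprecipitation from embryonic mouse cortex. Members were taken by rule from the authors' table of merged peaks, as the peaks called Exon of every named gene that had no peak called 3UTR, leaving out unnamed gene models. The rule used the location of a peak and no count. It gave 2496 exon peaks of 1687 genes, among 14297 peaks with a gene and 5983 peaks called Exon. Of these members, 2482 passed the filter on low counts and were tested.

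The libraries came from brain cortex of C57BL/6 embryos of 4 ages, the early stages E11.5 and E13.5 and the later stages E15.5 and E17.5, with 3 libraries each, and every group shared the strain, the tissue and the antibody against STAU2. The question the design sets is how the RNAs bound by STAU2 differ between stages of cortical development. The labels also list 12 inputs, which were not analysed here, so a difference between stages mixes a difference in the amount of an RNA with one in its binding. The table's column names match both an immunoprecipitation and its input, and, since it is a list of peaks, they were taken here to be the immunoprecipitations. Whether replicates come from separate embryos is not in the labels, and p-values therefore measure only the spread between these libraries.

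Staufen proteins bind double-stranded RNA, mostly stems that form within a transcript, and in neurons they are found in granules that carry mRNA along microtubules. Binding of Staufen proteins is best known in 3′ UTRs, where it can affect transport, translation and decay of the mRNA. Stems inside coding exons are also bound, and ribosomes that read through a coding sequence unwind them. In the cortex of this period dividing neuroepithelial cells and radial glia give way to neurons that grow axons and begin to form synapses.

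The exon peaks lay almost entirely over protein-coding genes, with 2333 peaks in 1554 genes. A further 94 peaks lay in 66 long non-coding RNA genes, 63 in 61 pseudogenes and 6 in 6 small RNA genes. Most genes had 1 exon peak (1207 genes), 304 had 2, and Eif5b and Hipk2 had the most with 9 each. A peak spanned a median of 317 bases (145 to 977), and annotated exon of its own gene covered a median of 51.8% of it (quartiles 30.9% and 97.5%). In 56 peaks this cover was under 10%. By the GENCODE annotation 2280 peaks (91.4%) overlapped coding sequence, 735 (29.5%) touched the last exon of a transcript and 482 (19.3%) the first, and 7 touched an annotated 3′ UTR. The 2863 exon peaks of the 1753 genes that do have a 3′ UTR peak, used below as a comparison, had the same median width. Of them 98.2% overlapped coding sequence, against 97.7% of the member peaks in protein-coding genes. A gene without coding sequence has no 3′ UTR, so the rule can place its exon peaks only among the members. Comparison peaks touched the last exon in 24.1% of cases, against 29.5% of the members and 28.6% of those in protein-coding genes. They lay whole inside 1 exon in 17.9%, against 23.9% and 22.7%. No test of these differences was made.

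To show what such exon sequence looks like, the most stable hairpin of at most 30 bases was predicted in peaks that lie whole inside 1 exon. It is printed for 9 genes that stand for the patterns described below. Capitals mark bases that pair in the prediction, and sequences are read 5′ to 3′ on the transcript strand from GENCODE vM21 transcripts of GRCm38. The first 4 genes were higher at E17.5 than at E11.5.
Neurod6: GAGGaaCCGgatgcaCGGCCTC
Fbxo41: CGGCGCGGCcGCcgctGCaGCCGCtGCCG
Nlgn2: TAGGCCcaagGGCCTA
Map7d1: AGaGCCCCagcccgtcGGGGCCT
Fat3 was highest at the middle stages, and Socs5 had similar levels at all 4.
Fat3: GGCAGCCTgagtgAGGCTGCC
Socs5: GCGCcaGGTGTCcgggGACAgCCacGCGC
The last 3 were lower at E17.5 than at E11.5, Luzp1 in its exon peak but not in its intron peak.
Mki67: CCaaaCAGCAgactaTGCTGaGG
Chd7: AAGGGgcTGTcaggccACAaaCCCTT
Luzp1: TGCTTtCCTTTtgggcAGAGGcAGGCA
On the minus strand lie those of Neurod6 (chr6:55679321-55679342), Fbxo41 (chr6:85484550-85484578), Nlgn2 (chr11:69825726-69825741), Map7d1 (chr4:126234906-126234928), Fat3 (chr9:15999374-15999394) and Mki67 (chr7:135700570-135700592). On the plus strand lie those of Socs5 (chr17:87134653-87134681), Chd7 (chr4:8752331-8752356) and Luzp1 (chr4:136541556-136541582). Among these 9 the predicted energy was lowest for Fbxo41 at -19.4 kcal per mol and for Fat3 at -16.5 kcal per mol, whose stem of 8 pairs has no mismatch. It was highest for Mki67 at -7.7 kcal per mol. Other named genes had predictions that are not printed. Nefm (-7.4), Hivep3 (-8.8) and Tuba1b (-11.0) were higher at E17.5 than at E11.5. Filip1l (-11.0) fell at E13.5 against E11.5 and Cd248 (-9.4) at E15.5 against E13.5. The 9 printed therefore do not show how energy goes with direction. A prediction of this kind says that the bases can pair and not that STAU2 binds there.

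Each library held 4688215 to 6374892 counts over peaks with a gene, and a member peak had a median of 29.5 to 98 counts, depending on the library. Levels below are CPM, read counts scaled to a common library size over gene peaks after TMM scaling, given for replicates 1, 2 and 3 in turn. Changes are edgeR quasi-likelihood log2 differences ± SE with Benjamini-Hochberg adjusted p-values over all 14106 gene peaks tested. As a check of the tissue, the summed level of 17 genes of cortical neurons with any peak was 949.7 to 976.3 CPM at E11.5, then 3181 to 3362 at E13.5, next 4262 to 5064 at E15.5, and last 6600 to 7223 at E17.5. For 13 genes of radial glia and intermediate progenitors the ranges were 764 to 1150, 1294 to 1683, 1327 to 1341 and 921.3 to 1313 CPM. In whole tissue, fewer cells of a type and less RNA per cell cannot be told apart.

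Over the 4 stages 1130 of the 2482 tested exon peaks (45.5%) passed the test, beside 46.6% of all gene peaks. Of these, 576 (51.0%) had their highest mean at E11.5 and 354 (31.3%) at E17.5. Another 116 were highest at E13.5 and 84 at E15.5. The comparison exon peaks that passed were highest at E11.5 in 38.2% of cases and at E17.5 in 43.3%. At E17.5 against E11.5, 511 members rose and 760 fell, where 51.9% of all gene peaks were called, 25.8% higher and 26.1% lower. That is 20.6% higher and 30.6% lower among members, against 26.9% and 23.1% among the comparison exon peaks. The median log2 change was -0.23 over members (quartiles -1.30 and 0.83), 0.16 over comparison exon peaks and 0.02 over all gene peaks. The lean towards lower values was present in peaks with little and with much exon, since medians over 4 classes of exon cover ran from -0.35 to -0.19 in members and from 0.10 to 0.23 in comparison peaks. The libraries did not overlap at 1394 members, beside 57% of all gene peaks. Of the 1271 called, 882 kept their call and direction in each of 12 fits that left out 1 library.

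**Figure D1:**
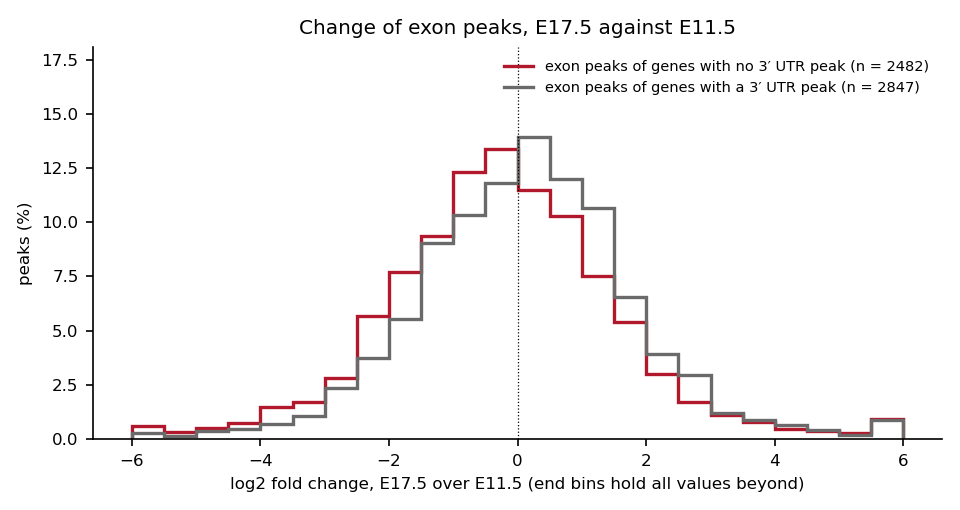
Distribution of the log2 change at E17.5 against E11.5 (x axis, TMM scaling) as percent of peaks per bin (y axis), for the 2482 tested exon peaks of genes with no 3′ UTR peak and for the 2847 tested exon peaks of genes with one. The members' curve lies to the left, with a median of -0.23 against 0.16.

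The split between higher and lower depends on how libraries are scaled. With libraries scaled by the total over gene peaks, the median change of all gene peaks was 1.20 at E17.5 against E11.5 (0.02 with TMM). Then 1209 members (48.7%) were called higher and 277 (11.2%) lower, beside 55.4% and 9.22% of all gene peaks. With the total over every peak the median of all gene peaks was 0.97. Then 1027 members (41.4%) were higher and 331 (13.3%) lower, beside 48.6% and 11.4% of all gene peaks. The members' median stood 0.25 to 0.26 below that of all gene peaks under these and the other scalings tried (-0.25 with TMM). A change of scaling moves every peak by nearly the same amount, so this gap was bound to stay and its steadiness tests nothing. With the total over gene peaks the median of all gene peaks was 1.21 at E13.5 against E11.5 (0.05 with TMM), 0.19 at E15.5 against E13.5 (0.01 with TMM) and -0.19 for E17.5 against E15.5 (TMM gave -0.01). Directions below are those under TMM.

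At E13.5 against E11.5, 197 members rose and 193 fell, where 17.2% of all gene peaks were called, 9.36% higher and 7.88% lower. The libraries of the 2 stages did not overlap at 827 members, beside 34% of all gene peaks. Scaled by the total over gene peaks, 1419 members (57.2%) were higher and 23 (0.927%) lower, beside 59.0% and 1.32% of all gene peaks. Between E15.5 and E13.5 few peaks differed: 1 member rose and 5 fell, where 0.319% of all gene peaks were called (0.0425% higher, 0.276% lower). Of the members, 149 passed an unadjusted p of 0.05 and DESeq2 called 15. With replicate number as a block 3 rose and 9 fell. Leaving out 1 library gave 0 members for E13.5 replicate 1 and 1 for E13.5 replicate 3. For the E15.5 libraries it gave 1 (replicate 1), 2 (replicate 2) and 3 (replicate 3). At E17.5 against E15.5, 81 rose and 216 fell, where 13.1% of all gene peaks were called, 5.89% higher and 7.17% lower. The libraries did not overlap at 699 members, beside 30.5% of all gene peaks. The counts were 55 and 297 with the total over gene peaks, beside 4.13% higher and 9.81% lower over all gene peaks. Among comparison exon peaks 144 rose and 172 fell under TMM. Fewer calls remained at E13.5 against E11.5 without E13.5 replicate 1 (225 in place of 390), and at E17.5 against E15.5 without E17.5 replicate 1 (170 in place of 297) or replicate 3 (187).

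Camk2b, Mapt and Neurod6, all known from neurons, were among the rises named by rule. Camk2b encodes the beta subunit of calcium/calmodulin-dependent protein kinase II, and its exon peak (chr11:5982299-5982703, minus strand) had 0, 0 and 0.376 CPM at E11.5, then 12.2, 9.11 and 8.31 at E13.5, next 46.3, 39.4 and 12.9 at E15.5, and last 193.8, 453.1 and 220.2 at E17.5. All 3 libraries of each stage lay above all 3 of the stage before, with replicate 3 at E15.5 closest to the E13.5 libraries. With 1 count in all at E11.5, the ratio of E17.5 to E11.5 was 2.46e+03 with a counting interval of 442 to 9.73e+04 (adjusted p = 1.23e-09). Neurod6, a transcription factor of young projection neurons, had 12.7, 25.4 and 18.4 CPM at E11.5, then 922.4, 655.8 and 678.5 at E13.5, next 1428, 700.6 and 786.1 at E15.5, and last 850.1, 878 and 607.2 at E17.5. Its peak is one of the hairpin-bearing peaks printed above, and nearly its whole rise lay between the first 2 stages (5.32 ± 0.45, adjusted p = 3.87e-08). Mapt, which encodes the axonal microtubule-binding protein tau, had 127.1, 77.1 and 171.8 CPM at E17.5 against 1.47, 1.90 and 0 at E11.5, with no overlap (6.75 ± 0.59, adjusted p = 8.83e-09). It rose again late, by 2.20 ± 0.42 at E17.5 against E15.5 (adjusted p = 0.00158).

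Several of the rising genes had no count in the 3 libraries at E11.5, so each rise is given as the smallest fold that 3 counts over that stage would allow. Hivep3, a zinc finger transcription factor, had 17.8, 28.9 and 10.8 CPM at E17.5 and was at least 54.4-fold higher (adjusted p = 5.83e-07). Pak6, a p21-activated kinase, had 14.95, 16.82 and 10.84 CPM at E17.5 and was at least 40.7-fold higher (adjusted p = 1.07e-06). Fbxo41, an F-box protein of neurons, was at least 19.5-fold higher, with 6.38, 9.04 and 5.03 CPM at E17.5 (adjusted p = 3.93e-05). These peaks were quiet at E11.5 and present in every library at E17.5. In Psd, an exchange factor for the small GTPase ARF6, both exon peaks rose. One had 44.5, 25.3 and 22.6 CPM at E17.5 against 1.18, 0.380 and 0.376 at E11.5 (5.46 ± 0.53, adjusted p = 4.26e-08). Abcc8, the regulatory subunit of a potassium channel, had 3 exon peaks, and the middle one had 7.73, 12.1 and 10.2 CPM at E17.5 against 0.295, 0 and 0.376 at E11.5 (ratio 43.3 with a counting interval of 11.8 to 361, adjusted p = 7.52e-07). Its highest values were at E15.5, at 14.0, 15.1 and 10.9 CPM.

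Of the genes listed for synapses, 5 exon peaks of 3 genes were among the members and all 5 rose. Beside this and the lists that follow, 25.8% of all gene peaks were higher and 26.1% lower at E17.5 against E11.5, with a median change of 0.02. Besides Camk2b these were Nlgn2, an adhesion protein of inhibitory synapses, and Pclo, a scaffold of the presynaptic active zone. Nlgn2 had 21.2, 45.4 and 31.9 CPM at E17.5 against 5.60, 6.07 and 3.38 at E11.5 (2.70 ± 0.49, adjusted p = 8.64e-05). The 3 Pclo peaks rose by 1.96, 1.74 and 1.66, the last of them not holding without 1 of 3 libraries (adjusted p up to 0.113). Of 6 peaks of cortical neuron genes 3 rose and the list's median was 0.80. Besides Mapt and Neurod6 this was Nefm, a neurofilament subunit, with 51.1, 51.7 and 69.0 CPM at E17.5 against 28.6, 17.1 and 12.8 at E11.5 (1.55 ± 0.40, adjusted p = 0.00276). The other 3 peaks of this list were not called, and 1 peak of the list was called lower without E17.5 replicate 1.

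On the list of spectrins, ankyrins, plakins and microtubule-binding proteins 7 of 8 peaks were higher at E17.5, beside 25.8% of all gene peaks, with a median of 2.85. All 8 were with the total over gene peaks, beside 55.4% of all gene peaks. Map7d1, which binds microtubules and recruits kinesin, rose at each of its 3 exon peaks by 2.88 to 3.25. The highest of them had 258.8, 525.4 and 329.4 CPM at E17.5 against 25.9, 55.1 and 70.3 at E11.5. Ank2, the membrane-skeleton adaptor ankyrin-B, had 14.1, 28.9 and 28.6 CPM at E17.5 against 1.47, 0.759 and 4.13 at E11.5 (3.50 ± 0.50, adjusted p = 6.35e-06). Macf1, which links microtubules to actin, rose at both peaks (2.81 ± 0.56 and 1.89 ± 0.43). The minus-end binding protein gene Camsap2 rose by 1.23 ± 0.37 (adjusted p = 0.0084). Among the most abundant exon peaks, Stmn1, which encodes the microtubule-destabilising protein stathmin, had 5169, 5225 and 4396 CPM at E17.5 against 702.9, 640.8 and 797.1 at E11.5 (2.79 ± 0.38, adjusted p = 2.97e-06). The alpha-tubulin gene Tuba1b had 2220, 3495 and 2744 CPM at E17.5 against 630.7, 566.8 and 991.4 at E11.5 (1.95 ± 0.40, adjusted p = 0.0003). Its paralog Tuba1a rose by 1.20 ± 0.38 (adjusted p = 0.0115), a call lost without E17.5 replicate 3 (adjusted p = 0.0518), and reads of the tubulin paralogs may be shared between them.

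**Figure D2:**
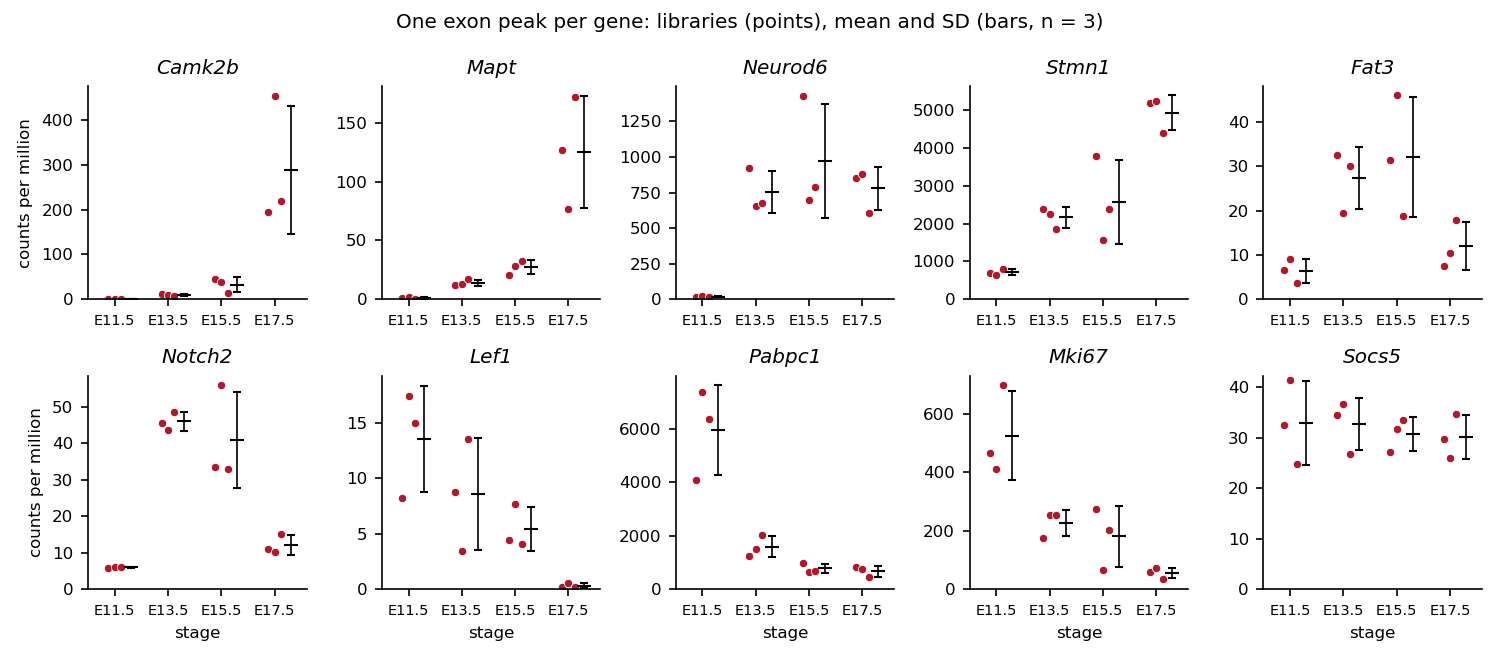
Levels of 10 exon peaks (CPM after TMM scaling, y axis, a separate scale for each gene) at the 4 stages (x axis). Points are libraries and bars are the mean ± SD of 3. Camk2b, Mapt, Neurod6 and Stmn1 are higher at E17.5 than at E11.5, Fat3 and Notch2 are highest at E13.5 or E15.5, Lef1, Pabpc1 and Mki67 are lower at E17.5, and Socs5 stays near 31.6 CPM.

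Among the largest falls were Dlk1, Rspo1 and Igf1, which encode signalling proteins, and the peaks of the first pair had no count at E17.5. Dlk1, an imprinted non-canonical Notch ligand, had 0 counts at E17.5 against 13.9, 7.97 and 13.53 CPM at E11.5, and was at least 71.2-fold lower (adjusted p = 4.05e-07). Rspo1, a secreted enhancer of Wnt signalling, had 0 counts at E17.5 against 7.07, 11.4 and 16.2 CPM at E11.5, and was at least 66.4-fold lower (adjusted p = 2.25e-07). For both, most of the difference was in place by E13.5, when Dlk1 stood at 1.11, 0.723 and 2.30 CPM. Igf1, insulin-like growth factor 1, fell at both exon peaks. The peak at chr10:87913630-87913946 (plus strand) had 0.336, 0.724 and 0.157 CPM at E17.5 against 34.8, 49.7 and 45.5 at E11.5 (-6.70 ± 0.56, adjusted p = 4.8e-09). At the same time the summed level of 9 genes of meninges and mesenchyme was 4.4 to 6.717 CPM at E17.5 against 334.7 to 417.9 at E11.5, and 337 to 351.6 at E13.5. For 2 erythroid genes with any peak it was 0 to 0.1809 CPM at E17.5 against 28.56 to 32.99 at E11.5. One of these is the member Alas2, the first enzyme of haem synthesis in red cells, with 0.168, 0 and 0 CPM at E17.5 against 12.1, 16.3 and 8.27 at E11.5. Its ratio of E11.5 to E17.5 was 218 with a counting interval of 38.2 to 8.68e+03, and other listed erythroid genes had no peak. The part of these cell types in the falls was not tested.

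Lef1, the transcription factor that carries Wnt signals at its target genes, fell at all 7 of its exon peaks, under TMM and under both scalings by totals. The peak with the largest fall among those with more than 3 counts at E17.5 (chr3:131189193-131189597, plus strand) had 8.25, 17.46 and 15.03 CPM at E11.5, then 8.77, 3.47 and 13.55 at E13.5, next 4.41, 7.68 and 4.12 at E15.5, and last 0.168, 0.543 and 0.157 at E17.5. The E17.5 libraries lay below all 9 others, and the change against E11.5 was -5.48 ± 0.66 (adjusted p = 6.62e-07). Rmst, a long non-coding RNA of neural progenitors, was lowest in the E17.5 libraries at each of its 3 exon peaks. The peak at chr10:92161908-92162224 (minus strand) had 11.49, 19.36 and 11.27 CPM at E11.5, then 9.88, 10.9 and 15.3 at E13.5, next 14.2, 3.02 and 10.7 at E15.5, and last 0.336, 1.45 and 0.157 at E17.5. At E17.5 against E15.5 it changed by -3.86 ± 0.63 (adjusted p = 0.00032). Usp29, a deubiquitinase from an imprinted cluster, fell at all 4 exon peaks (-4.59 to -3.57) at E17.5 against E11.5.

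Genes of the cell cycle and of DNA replication fell together. All 13 exon peaks of the 5 genes on this list that are members were lower at E17.5 than at E11.5, with a median of -2.37, and 11 to 13 were called when 1 library was left out. With the total over gene peaks 7 of the 13 were called lower and the median was -1.17, beside 9.22% lower and a median of 1.2 over all gene peaks. Mki67, the proliferation marker Ki-67, had 57.6, 70.7 and 35.7 CPM at E17.5 against 466.9, 411.5 and 698.3 at E11.5 (-3.27 ± 0.46, adjusted p = 5.26e-06). Bub1b, a kinase of the spindle checkpoint, fell at 4 peaks (-3.70 to -2.37), and Aspm, a spindle-pole protein of dividing progenitors, at 4 peaks (-2.96 to -1.85). The mitotic kinase gene Plk1 fell at all 3 peaks, most by 1.86, and those calls were lost with the total over gene peaks. Motor proteins of the kinesin, dynein and myosin families included 10 falling and 2 rising peaks of 24, beside 26.1% lower and 25.8% higher over all gene peaks. Kif4, a kinesin of mitotic chromosomes, fell at both peaks (-4.13 ± 0.68 and -2.79 ± 0.56), and so did Kif23, a kinesin of the midbody (-1.32 ± 0.37 and -1.42 ± 0.37). Kif1b, a kinesin of axonal transport named here after its values were seen, rose by 1.88 ± 0.46 (adjusted p = 0.00165). With the total over gene peaks 9 of these 24 peaks were called higher and 3 lower, beside 55.4% and 9.22% of all gene peaks.

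Exon peaks over the translation machinery were more often lower than higher under TMM. Of 13 peaks of ribosomal protein genes 10 fell with a median of -1.47, beside 26.1% lower over all gene peaks. Their median stayed below 0 under the other scalings, at -0.29 with the total over gene peaks (3 higher and 2 lower) and -0.51 with the total over every peak (0 higher and 4 lower). Rps4x had 207.4, 141.3 and 98.2 CPM at E17.5 against 577.1, 761.9 and 771.2 at E11.5 (-2.24 ± 0.38, adjusted p = 4.05e-05). Rpl39 had 1221, 787.5 and 807.1 CPM at E17.5 against 3500, 4164 and 2809 at E11.5 (-1.90 ± 0.35, adjusted p = 0.000108). Ribosomal protein genes have many near-identical copies, and how reads that match several copies were counted is not given in the sources used here, so these values are uncertain. Of 39 peaks of translation factors and aminoacyl-tRNA synthetases 15 fell and 4 rose, with a median of -0.35. With the total over gene peaks 16 of the 39 were higher and 0 lower, with a median of 0.83. All gene peaks then had 55.4% higher, 9.22% lower and a median of 1.2. The list's median lay 0.36 below that of all gene peaks under both scalings. Pabpc1, the cytoplasmic poly(A)-binding protein, fell under every scaling. Its peak at chr15:36605287-36605824 (minus strand) had 4080, 7353 and 6368 CPM at E11.5, then 1248, 1496 and 2011 at E13.5, next 982.7, 656.7 and 684.6 at E15.5, and last 815.7, 759.5 and 437.6 at E17.5. The steepest step was the first, and the change of E17.5 against E11.5 was -3.14 ± 0.40 (adjusted p = 1.23e-06). The other 5 Pabpc1 peaks changed by -3.47 to -2.87.

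Among 58 exon peaks of RNA helicases, splicing factors and RNA-binding proteins 23 fell and 5 rose, beside 26.1% lower and 25.8% higher over all gene peaks. Their median of -0.59 lay 0.61 to 0.62 below that of all gene peaks under every scaling, a gap that a change of scaling can hardly move. With the total over gene peaks 15 were called higher and 6 lower, beside 55.4% and 9.22% of all gene peaks. Cnot6, a deadenylase of the CCR4-NOT complex, fell at 3 peaks (-2.25 to -1.78), and Rbm27 at 3 peaks (-2.61 to -2.22). The splicing regulator gene Srsf10 had 16.1, 22.1 and 23.1 CPM at E17.5 against 128.7, 55.4 and 80.1 at E11.5 (-2.11 ± 0.40, adjusted p = 0.000137). Sf3b2, a subunit of the spliceosome, rose to 168.3, 166.0 and 194.9 CPM at E17.5, against 53.6, 37.2 and 32.7 at E11.5 (2.10 ± 0.36, adjusted p = 4.74e-05). Without E11.5 replicate 1 or replicate 3 the rising peaks of this list numbered 3.

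Of 79 peaks of chromatin modifiers and remodellers 22 were higher and 17 lower, with a median of 0.22. These shares are near the 25.8% higher and 26.1% lower of all gene peaks. Scaled by the total over gene peaks, 48 were higher and 4 lower, beside 55.4% and 9.22% of all gene peaks. The peaks higher under TMM include a Trrap peak that is little exon, described below. The histone methyltransferase genes Kmt2d and Kmt2b, named here after their values were seen, rose at all of their exon peaks, 4 by 1.11 to 2.20 and 3 by 1.40 to 2.30. The lowest of these Kmt2d calls did not hold when E11.5 replicate 2 was left out (adjusted p = 0.0771). The most abundant Kmt2d peak (chr15:98863646-98864050, minus strand) had 102.8, 117.6 and 170.7 CPM at E17.5 against 48.0, 41.8 and 40.2 at E11.5, with no overlap. Chd7, an ATP-dependent remodeller of neural progenitors, fell at 5 of 6 peaks. The peak whose hairpin is printed above had 1.51, 0.724 and 0.943 CPM at E17.5 against 7.07, 6.07 and 7.52 at E11.5 (-2.67 ± 0.48, adjusted p = 7.48e-05). Calls at 3 of the other Chd7 peaks were lost without 1 or more libraries (adjusted p up to 0.112), and 1 Chd7 peak was called higher with the total over gene peaks. The demethylase gene Kdm7a fell at 3 peaks (-2.41 to -2.04), and Baz1a, a subunit of chromatin-assembly complexes, at both peaks (-2.84 ± 0.46 and -2.18 ± 0.47).

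In other lists both directions were called, as they were over all gene peaks (25.8% higher and 26.1% lower). Of 65 peaks of zinc finger genes 14 rose and 11 fell (median -0.02), of 41 of ubiquitin ligases and deubiquitinases 7 rose and 9 fell (median -0.12), and of 42 of cilium and centrosome genes 5 rose and 10 fell (median -0.29). Solute carriers and ABC transporters had 5 rising and 10 falling peaks of 27. The proteasome, chaperonin and heat shock list had 5 and 6 of 28, the mitochondrial list 3 and 1 of 25, and cadherins 2 and 1 of 7. The share of higher peaks was below that of all gene peaks in each of these lists except the cadherins, and the share of lower peaks in each except the solute carriers and ABC transporters. Scaled by the total over gene peaks, each of these lists had more higher than lower calls, from 5 and 0 for cadherins to 40 and 5 for zinc finger genes. Over all gene peaks 55.4% were then higher and 9.22% lower. The smaller counts turn on single libraries. The higher cilium and centrosome peaks numbered 3 without E17.5 replicate 2, and the higher chaperone peaks 3 without E11.5 replicate 2 or E17.5 replicate 3. The higher cilium and centrosome peaks include that of Cep295 over a small Cajal body RNA, described below. The cadherins had 1 higher peak without E11.5 replicate 1 or 3 or E17.5 replicate 1 or 3. The 1 lower mitochondrial peak was lost without E11.5 replicate 1 or E17.5 replicate 2 or 3, and there were 2 higher and 2 lower without E11.5 replicate 2. Dnajb5, which encodes a heat shock cochaperone, had 37.3, 34.2 and 42.7 CPM at E17.5 against 8.25, 11.01 and 7.89 at E11.5 (2.07 ± 0.39, adjusted p = 0.000133).

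A smaller set of exon peaks was highest at E13.5 and E15.5. Fat3, an atypical cadherin, had 6.48, 9.11 and 3.76 CPM at E11.5, then 32.4, 19.4 and 30.03 at E13.5, next 31.3, 46.0 and 18.8 at E15.5, and last 7.56, 10.5 and 17.9 at E17.5 at the peak whose hairpin is printed above. Its middle stages lay above both ends in every library. It rose at E13.5 against E11.5 (2.08 ± 0.44, adjusted p = 0.00224), and the fall at E17.5 against E15.5 (-1.41 ± 0.41, adjusted p = 0.0244) was lost without any 1 of 4 libraries (adjusted p up to 0.124). Notch2, a receptor of radial glia named here after its values were seen, had 5.89, 6.07 and 6.01 CPM at E11.5, then 45.6, 43.7 and 48.7 at E13.5, next 33.4, 56.0 and 33.0 at E15.5, and last 11.1, 10.1 and 15.2 at E17.5. It rose by 2.94 ± 0.38 at E13.5 against E11.5 (adjusted p = 1.29e-05) and fell by 1.74 at E17.5 against E15.5 (SE 0.34, adjusted p = 0.00187). At E17.5 against E11.5 its rise of 1.02 ± 0.37 (adjusted p = 0.026) was lost without any E11.5 library or E17.5 replicate 3 (adjusted p up to 0.104). Celsr1, a cadherin of planar cell polarity, rose by 3.88 ± 0.54 at E13.5 against E11.5 and stood at 5.04, 6.51 and 7.39 CPM at E17.5, against 13.8, 41.6 and 21.6 at E15.5. Ptk7, a Wnt and planar polarity co-receptor, fell at E17.5 against E15.5 at 3 of its 4 peaks, most at chr17:46589804-46590238 (-4.03 ± 0.71, adjusted p = 0.000677). Summed levels of choroid plexus genes with any peak were also highest at E13.5 (13.15 to 23.92 CPM at E11.5, then 455.7 to 592.2 at E13.5, next 63.51 to 119.9 at E15.5, and last 4.522 to 5.374 at E17.5), and their part was not tested.

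The early step also held its own largest changes. Besides Neurod6, Sez6l, a membrane protein of neurons, had 7.79, 10.3 and 17.51 CPM at E13.5 against 0, 1.52 and 0 at E11.5 (4.61 ± 0.75, adjusted p = 0.000169). Prrx2, a homeobox gene of mesenchyme, had 0.835, 1.01 and 1.15 CPM at E13.5 against 14.1, 16.3 and 22.9 at E11.5 (-4.12 ± 0.48, adjusted p = 3.84e-06). At E15.5 against E13.5 the 1 rise was in Abcc8, at another exon peak than the middle one described above. It had 11.6, 28.5 and 7.68 CPM at E15.5 against 1.11, 2.17 and 2.81 at E13.5 (2.95 ± 0.50, adjusted p = 0.00524). The 5 falls were in Dlk1, Zfp568, Tpd52l1, Cd248 and Lgals1. Lgals1, the lectin galectin-1, had 11.6, 9.88 and 10.6 CPM at E15.5 against 31.7, 24.7 and 48.8 at E13.5 (-1.71 ± 0.35, adjusted p = 0.023), and Cd248, a surface protein of pericytes and fibroblasts, fell by 1.74 ± 0.35 (adjusted p = 0.0194). None of these 6 calls held in every fit that left out 1 library, with adjusted p between 0.0569 and 0.234 at their highest. The meninges and mesenchyme genes fell over the same step, to 45.3 to 51.78 CPM at E15.5, against 337 to 351.6 at E13.5.

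At the last step Stk32c, a serine/threonine kinase, stood out with 12.9, 7.96 and 15.1 CPM at E17.5 against 0.857, 0.274 and 1.00 at E15.5 (4.01 ± 0.51, adjusted p = 3.27e-05). Its highest value in the 9 earlier libraries was 1.002 CPM. Camk2b rose by 3.14 ± 0.47 in this step (adjusted p = 0.000132). Pgap1, an enzyme that remodels GPI anchors, went the other way, with 0.840, 1.45 and 1.57 CPM at E17.5 against 8.81, 17.01 and 10.7 at E15.5 (-3.22 ± 0.48, adjusted p = 0.000127). Rhbdl3, a rhomboid-family membrane protein, fell at all 3 exon peaks, most at the peak with -3.73 ± 0.57 (adjusted p = 0.000181).

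Exon peaks of 1 gene share its RNA and seldom passed the test in opposite directions. In the 477 genes with at least 2 tested exon peaks the spread of log2 changes within a gene had a median of 0.55. Among 306 of these with any changed peak, all exon peaks were higher in 70 and all lower in 103, and 4 held peaks called in both directions. Hipk2, a nuclear kinase, fell at all 9 peaks (-2.61 to -1.43). The highest of them had 42.2, 20.8 and 32.2 CPM at E17.5 against 96.0, 152.2 and 86.4 at E11.5 (adjusted p = 0.000657). Eif5b, the factor that joins ribosomal subunits, fell at 8 of 9 peaks (-1.72 to -1.10 among those called), and no Eif5b peak and 1 Hipk2 peak passed with the total over gene peaks. Ppig, a nuclear cyclophilin, fell at all 7 (-2.48 to -1.32). Ncoa6, a nuclear receptor coactivator, had 8 peaks between -0.41 and 0.45, and Fchsd2, a membrane-remodelling protein, 7 peaks between -0.72 and 0.35, without a call at any. Nfib, a transcription factor of neuronal and glial differentiation, rose at all 4 of its exon peaks (2.55 to 2.91), after a rise of 3.31 to 3.79 already at E13.5 against E11.5.

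**Figure D3:**
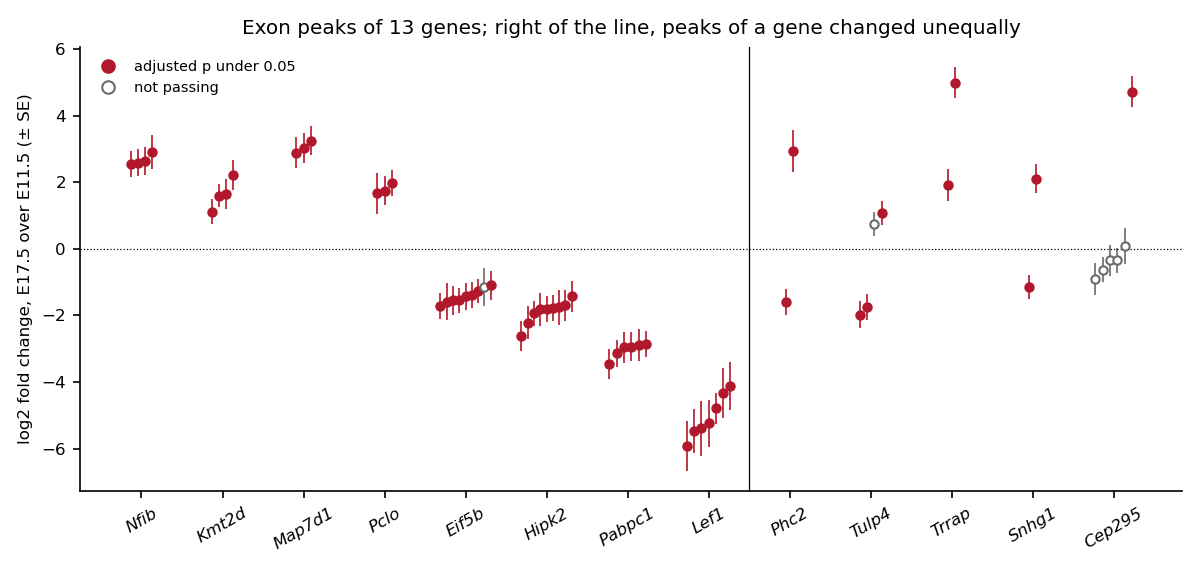
Log2 change at E17.5 against E11.5 (y axis, ± SE) of each exon peak of 13 genes (x axis, peaks of a gene in order of value), with TMM scaling. Filled points passed the test, and 3 Lef1 peaks rest on 3 or fewer counts at E17.5. The left genes keep 1 direction over their exon peaks, such as Pabpc1 (-3.47 to -2.87) and Map7d1 (2.88 to 3.25), and in the right genes, such as Cep295 and Phc2, the peaks changed unequally.

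Unequal change among the peaks of a gene was tested with edgeR's diffSpliceDGE. It passed in 28 of 590 member genes with at least 2 peaks of any kind (4.75%, beside 4.33% of all genes tested), and in 10 of 478 when the fit held exon peaks alone. In Cep295, a centriole protein, 1 peak (chr9:15326147-15326552, minus strand) covers the small Cajal body RNA Scarna9 and is 8.13% exon. It had 267.0, 270.0 and 235.9 CPM at E17.5 against 9.72, 6.83 and 12.8 at E11.5 (4.72 ± 0.47), while the other 5 peaks lay between -0.91 and 0.08 without a call (adjusted p for unequal change = 1.8e-15). The 6 peaks called Exon of small RNA genes included Scarna2, named after its values were seen, which had 2006, 1641 and 539.8 CPM at E17.5 against 47.7, 70.6 and 41.0 at E11.5 (4.72 ± 0.51). Trrap, a scaffold of acetyltransferase complexes, had a peak at chr5:144771331-144771629 that is 7.36% exon and held 3284, 1355 and 1357 CPM at E17.5 against 72.5, 64.2 and 51.5 at E11.5 (4.99 ± 0.46). Its other peak rose by 1.91 ± 0.47. In Phc2, a Polycomb protein named here after its values were seen, the peak at chr4:128723013-128723768 had 5.54, 10.3 and 8.01 CPM at E17.5 against 1.47, 1.52 and 0 at E11.5 (2.93 ± 0.64). The Phc2 peak at chr4:128743462-128743606 had 13.8, 7.05 and 11.3 CPM at E17.5 against 42.1, 25.4 and 29.7 at E11.5 (-1.60 ± 0.38), so that neither pair of stages overlapped and the directions were opposite. Under the total over gene peaks the second was not called (-0.45). In Tulp4 the 2 upstream peaks fell (-1.76 ± 0.39 and -1.98 ± 0.40), 1 of them opposite a peak of the pseudogene Fbl-ps2, and the most downstream rose (1.06 ± 0.36, lost without either of 2 libraries, adjusted p up to 0.101).

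In some of the 28 genes an intron peak and the exon peak changed in opposite directions. Zswim8, a cullin adaptor, had 36.6, 28.9 and 36.1 CPM in its exon peak at E17.5 against 3.83, 3.42 and 3.76 at E11.5 (3.20 ± 0.39), while its intron peak changed by -6.23 ± 0.99. That intron peak was weak, with a mean of 5.70 CPM (SD 1.79) at E11.5 and 0.056 (SD 0.097) at E17.5. Nfib, whose 4 exon peaks rose, had an intron peak that changed by -3.90 ± 0.89 (adjusted p = 0.000845), and its change was unequal among 6 peaks (adjusted p = 7.15e-07). The Nfib intron peak was also weak, with a mean of 4.58 CPM (SD 3.94) at E11.5 and 0.286 (SD 0.272) at E17.5. Luzp1, whose exon peak printed above fell, had an intron peak that rose (1.53 ± 0.56, adjusted p = 0.0251). Its mean was 3.94 CPM (SD 3.17) at E11.5 and 11.3 (SD 5.83) at E17.5. Over the 35 tested intron peaks of member genes 4 rose and 18 fell with a median of -1.29, beside 82 and 148 of all 467 intron peaks with a median of -0.12. The 57 exon peaks of the same genes had 14 rises and 20 falls with a median of 0.05.

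Peaks outside protein-coding genes held some of the highest counts. Of 90 tested peaks of long non-coding RNA genes 22 rose and 35 fell, with a median of -0.27, and of 62 pseudogene peaks 10 rose and 23 fell, with a median of -0.48, beside 25.8% higher and 26.1% lower over all gene peaks. The pseudogene Tpt1-ps3, a copy of a translationally controlled tumour protein gene, had 1922, 1448 and 1775 CPM at E17.5 against 13650, 7963 and 7977 at E11.5 (-2.52 ± 0.38, adjusted p = 1.09e-05), but its reads cannot be told apart here from those of its parent gene. Snhg3, a snoRNA host RNA whose peak overlaps Rcc1 on the same strand, fell to 0.504, 0.181 and 0.471 CPM at E17.5, against 10.6, 15.6 and 12.03 at E11.5 (-4.95 ± 0.63, adjusted p = 1.45e-06). The peak of Mir6236 had the highest mean of all members and was uneven between replicates, with 2462, 44710 and 2302 CPM at E11.5, then 446.8, 6561 and 314.3 at E13.5, next 578.2, 528.4 and 295.6 at E15.5, and last 509, 7072 and 205.9 at E17.5. Replicate 2 was more than 10 times above both others at 3 of the 4 stages, and the comparison of E17.5 with E11.5 did not pass (adjusted p = 0.0532).

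Member peaks together held 7.94% ± 1.07 of gene-peak counts at E11.5, then 13.03% ± 0.454 at E13.5, next 13.3% ± 1.01 at E15.5, and last 12.1% ± 0.352 at E17.5 (SD, n = 3). This share depends on a few very high peaks: without the 10 highest gene peaks it was 19.5% ± 1.32, 18.8% ± 0.376, 17.6% ± 0.832 and 16.3% ± 0.250. The first order is low at E11.5 and the second is high there. Summed counts of member peaks, relative to summed counts of comparison exon peaks in the same library, were 1.97 to 2.61 at E11.5, then 1.52 to 1.56 at E13.5, next 1.38 to 1.42 at E15.5, and last 1.29 to 1.39 at E17.5. Every E11.5 library lay above every later one, and no test was made. Peaks over small RNA genes, Mir6236 among them, held 4.42% to 28.3% of member counts in a library and pseudogenes 12.1% to 25.5%. The ratio to comparison peaks includes them. Its highest value, 2.61, was in E11.5 replicate 2, where peaks over small RNA genes held 28.3%. The ratio without such peaks was not computed.

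**Figure D4:**
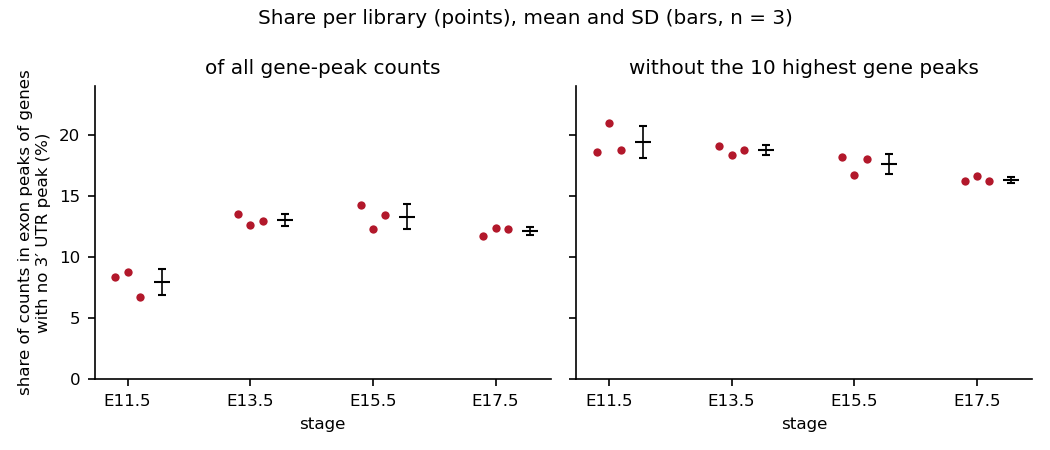
Share of gene-peak counts in the member peaks for each library (y axis, percent; x axis, stage), with all gene peaks on the left and without the 10 highest on the right. Points are libraries and bars are the mean ± SD of 3. The E11.5 libraries are lowest on the left (6.73% to 8.76%) and average 19.5% on the right, above the 16.3% of E17.5.

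Base composition moved with the direction of change. In the 597 member peaks that lie whole in 1 exon the median GC content was 51.4% (quartiles 45.5% and 57.2%), against 54.5% in 512 comparison peaks. Peaks that rose at E17.5 against E11.5 had a median GC of 56.6% (129 peaks), those not called 51.7% (292) and those that fell 47.3% (171). The comparison peaks had 57.0%, 54.5% and 51.6% in the same order. Predicted folding followed GC: the minimum free energy of the central 145 bases had a median of -38.9 kcal per mol in rising, -35.2 in uncalled and -32.9 in falling member peaks. The best hairpin had a median of -10.2, -9.6 and -8.7 kcal per mol. The part of GC content in the changes was not tested.

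**Figure D5:**
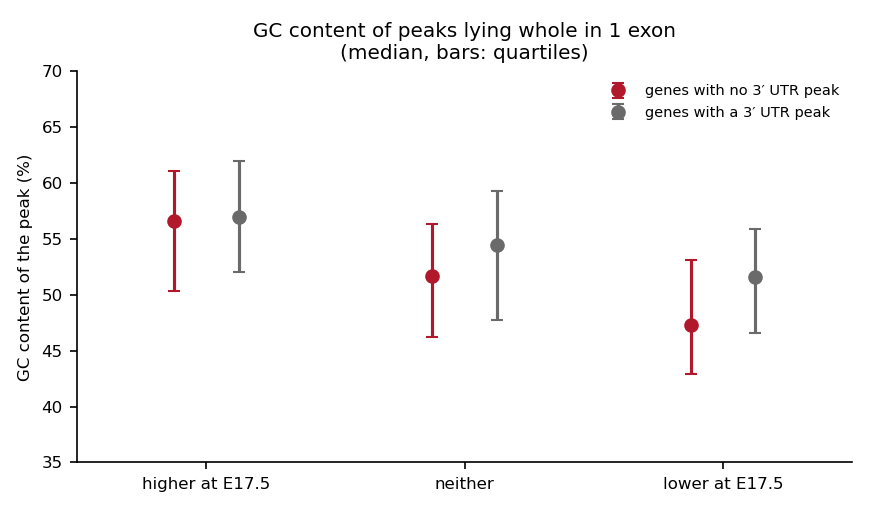
GC content (percent, y axis) of peaks that lie whole in 1 exon, by call at E17.5 against E11.5 (x axis), for members and for comparison exon peaks. Points are medians and bars run from the lower to the upper quartile. Medians are 56.6% in rising and 47.3% in falling member peaks.

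A few well-covered exon peaks barely moved. Among members with a mean of at least 20 CPM the smallest range of stage means was 0.08 on the log2 scale in Prkag1, the gamma subunit of AMP-activated protein kinase. Socs5, a suppressor of cytokine signalling, had a range of 0.12, with 32.4, 41.4 and 24.8 CPM at E11.5, then 34.4, 36.7 and 26.8 at E13.5, next 27.1, 31.7 and 33.4 at E15.5, and last 29.7, 26.1 and 34.7 at E17.5. All 4 stages overlapped. Cox5b, a subunit of cytochrome c oxidase, varied by 0.15 at a mean of 132.7 CPM. These ranges hold under TMM scaling.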

How the data were processed

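RNA recovered with an antibody against STAU2 was sequenced from mouse cortex at 4 stages, with 3 libraries a stage. Per the labels, RNA was extracted with acid phenol and chloroform, Ribo-Zero took out ribosomal RNA and the strand-marking ScriptSeq kit was used for library construction. HOMER 4.10 and the builds mm10 and GRCm38 are named in the submitters' processing notes, while no source used here gives the aligner or the counting settings. The authors deposited 1 table of whole-number counts per merged peak, with each peak's location, gene and score. The score is the authors' own and was used only to split peaks by rank.

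Peaks called Intergenic (4513) and 165 others without a gene were left out of the tests. Counts were tested with edgeR 4.0.16 (R 4.3.3), with TMM scaling, filterByExpr and the quasi-likelihood F test over all 12 libraries, at an adjusted p of 0.05. Unequal change within a gene was tested with diffSpliceDGE. The steps were tested on simulated data. A ratio against 1 to 3 counts carries a 95% exact binomial interval, and a bound against 0 counts uses a floor of 3 counts over the stage. Both cover counting error only. Peaks were placed on GENCODE vM21, and hairpins were predicted with ViennaRNA 2.7.2. Alternatives were other scalings, no filter, DESeq2 1.42.0, a replicate block, subsets of peaks and the leaving out of each library. No per-sample column was left unused.

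Members and gene lists were chosen with earlier results of these data known. The genes named are, by rule, the 10 largest rises and falls of each comparison with no overlap between stages, the 12 highest peaks, the 12 genes with most peaks, the 4 genes with smallest p of each list with at least 5 peaks, the 8 genes with the most unequal peaks and the 8 steadiest peaks with a mean of at least 20 CPM. Not every gene the rule picks is named. Replicate numbers were taken to pair libraries where deviations from the stage means correlated above 0.1 in all 3 same-numbered pairs. Of the 4 comparisons this held for E15.5 and E13.5 (0.106, 0.141 and 0.16), where the blocked counts are given. In the others the lowest of the 3 was 0.085 (E13.5 and E11.5), 0.026 (E17.5 and E15.5) and 0.098 (E17.5 and E11.5).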

Additional observations from a re-analysis of the deposited data

How the results depend on the processing

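Median-of-ratios size factors, no filter and DESeq2 kept the counts of members called within 1.5 times, except at E15.5 against E13.5, where DESeq2 called 15 in place of 6. Summing counts per gene gave 936 of 1679 genes at E17.5 against E11.5, a count of genes that cannot be set against one of peaks. Leaving out pseudogenes or peaks over small RNA genes, both chosen after seeing the data, dropped few peaks from the same fit. The counts at E17.5 against E11.5, 1238 and 1255 in place of 1271, could hardly have moved and test nothing. Scaling by the total over gene peaks gave 1728 members over the 4 stages and 1442 at E13.5 against E11.5, and scaling by the total over every peak gave 1857, 1478 and, at E17.5 against E15.5, 530. All gene peaks moved too. At E13.5 against E11.5 59.0% of them were higher and 1.32% lower with the first total, and 60.75% and 1.24% with the second. At E17.5 against E15.5 the second gave 2.64% higher and 16.3% lower. For the 4 stages together this share was not counted. Both totals move the median of all gene peaks, and the peak of Mrps35 then changed sign at E17.5 against E11.5 (0.232 and 0.015, neither called). The upper 50% of peaks by score held 1040 tested members, of which 511 passed over the 4 stages and 579 at E17.5 against E11.5. In the 3 successive steps 190, 1 and 120 passed, and 9 of 208 genes were unequal. Peaks at least 50% coding held 919 tested members, of which 411 passed over the 4 stages and 455 at E17.5 against E11.5. In the 3 steps 153, 1 and 111 passed, and 1 of 136 genes was unequal. Both subsets hold fewer peaks than the 2482 tested members, so their counts cannot be set against those of all members. The same subsets of all gene peaks were not counted. Only exon peaks in the fit, chosen after seeing the data, gave 10 unequal genes. With replicate number as a block, 12 members passed at E15.5 against E13.5, and in the other comparisons the block moved no count by over 1.5 times (1239 over the 4 stages, 478, 389 and 1327). Leaving out 1 library gave 0 to 8 members at E15.5 against E13.5, 225 (without E13.5 replicate 1) to 422 at E13.5 against E11.5, and 170 (without E17.5 replicate 1) to 313 at E17.5 against E15.5, with 187 without E17.5 replicate 3. As a percentage of all peak counts members held 3.464 (E11.5), then 5.899 and 5.858, and 4.526 (E17.5). Without the 10 highest gene peaks the percentages of gene-peak counts were 19.45, 18.75, 17.63 and 16.34. The cause of these differences was not tested. A member peak had a median of 29.5 to 98 counts in a library, and the smallest change that this depth can show was not measured.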
